A study of Mus musculus with 12 samples.

Results

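Cluster 4 of the 28-week spleen was a group of 853 T cells sorted as PD-1+CD44+CD8+ from the NZB/W F1 strain. Its members were the cells that the authors' own graph-based clustering had assigned to cluster 4, and no gene threshold was applied to choose them. They made up 13.2% (95% exact binomial interval 12.3 to 14.0) of the 6481 cells of that library and 853 of the 20510 cells of the series. The cluster had been described by the highest level of Il7r, the alpha chain of the interleukin-7 receptor, and of Hspa1a, an inducible HSP70 chaperone, in its library, so both are given here as descriptions.

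The NZB/W F1 hybrid is a mouse that develops lupus-like autoimmunity and nephritis with age, and female mice were used. The same gate was applied to splenocytes of 12-week-old animals (12W) and to splenocytes and kidney-infiltrating cells of 28-week-old animals (28W), and each group was profiled with the 10x Genomics 5′ kit, version 2. Each group carried 4 sample titles that read as sequencing lanes and were pooled into 1 cell matrix, the number of mice was not given in the sources used here, and for 28W spleen the labels conflict, with 28W in the titles, which were followed here, and 12 weeks under age. There was therefore 1 library per group and no replicate check of any difference below, so no p-values are given, and the intervals (95%, exact Poisson for a level and exact binomial for a ratio or share) cover counting error only.

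Type I interferons signal through the IFNAR1 and IFNAR2 receptor chains and the kinases JAK1 and TYK2 to a complex of STAT and IRF factors, which binds interferon-stimulated response elements in the promoters of a large set of antiviral genes. A raised interferon-stimulated gene signature is a well-known feature of the blood cells of patients with lupus. IL-7 receptor signalling sustains resting and memory T cells, and the receptor chain is characteristically lowered on strongly activated effector cells.

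The 28W spleen library held 11 clusters and a mean of 4941 unique molecular identifiers (UMIs, single counted transcripts) per cell, against 5040 in 12W spleen (6894 cells, 10 clusters) and 4196 in 28W kidney (7135 cells, 12 clusters). Cluster 4 averaged 4175 UMIs per cell, of which 1.06% were mitochondrial and 36.2% came from ribosomal protein genes. The other 10 clusters averaged 1020 (cluster 8) to 12208 UMIs per cell (cluster 6, which held the cell cycle genes), and cluster 11 stood apart with 6.64% mitochondrial UMIs. The library shared 52 cell barcodes with 12W spleen, 7 of them in cluster 4, and 66 with 28W kidney, 11 of them in cluster 4. All levels below are UMIs of a gene per 1e+06 UMIs of the cluster (CPM), so each is a mean over its cells and the share of cells carrying a transcript cannot be told. A log2 ratio compares levels after adding 10 CPM, and a gene was called higher or lower in cluster 4 when it differed by at least 1.5-fold on that scale from all other cells of the library, among genes at 20 CPM or more in either.

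The cells of cluster 4 carried the T cell and sort markers. Cd8a stood at 506 CPM in cluster 4 and 486 CPM in the other cells, Cd8b1 at 1187 and 994 CPM, Cd44 at 54.8 and 47.7 CPM, and Pdcd1, which encodes PD-1, at 32.9 and 35 CPM. None of the 4 sort markers and none of 13 genes of the T cell receptor complex and its proximal signalling (median log2 ratio −0.02) was called in either direction, with Cd3e, a chain of that complex, at 1052 and 1046 CPM. The summed B cell markers were at 217 CPM against 957 CPM in the other cells (Ebf1 at 0), the myeloid and dendritic markers at 163 against 415 CPM (Itgam, Siglech and Xcr1 at 0) and the NK cell markers at 36.8 against 114 CPM (Ncr1 and Klra8 at 0). Neutrophil granule genes summed to 0.842 against 351 CPM, erythroid genes to 7.02 against 566 CPM, plasma cell markers to 41.8 against 289 CPM and platelet markers to 2.25 against 2.74 CPM. Gamma delta T cell markers summed to 16.3 against 27.8 CPM and CD4 and regulatory T cell markers to 145 against 154 CPM. The sums of the other cells drew on single clusters, with 28887 CPM of B cell and 8739 CPM of myeloid markers in cluster 10. Cluster 8 held 25739 CPM of neutrophil granule genes. Sums elsewhere were as low as 176 CPM for B cell markers (cluster 1) and 149 CPM for myeloid markers (cluster 6). None of these lists had a member called higher in cluster 4, and none of 6 kidney tubule markers was in the table. No gamma delta or platelet marker reached 20 CPM, so none of these could be called.

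Genes of the interferon response led the cluster. Of 5338 genes tested, 123 were called higher in cluster 4 (2.3%) and 229 lower (4.29%), with a median log2 ratio of −0.06 over all of them. All 13 genes of the interferon-stimulated list were among those called higher, with a median log2 ratio of 1.59 and the highest value, 2.26, for Ifit3. Because the clusters were built on these same cells and genes, the contrast describes cluster 4 and does not test it. The summed level of the list was 3246 CPM in cluster 4 and 1192 CPM in the other cells. It ran from 696 CPM (cluster 6) to 1909 CPM (cluster 5) over the other 10 clusters, so that no other cluster reached the level of cluster 4. With 11.1% of the UMIs of the library, cluster 4 held 25.4% of the UMIs of these 13 genes.

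Ifit3 encodes an interferon-induced protein of the IFIT family, which restricts viral RNA. It stood at 345 CPM (326 to 365) in cluster 4, and in the other 10 clusters it ranged from 12.4 CPM in cluster 6 over a median of 61.9 CPM to 130 CPM in cluster 5. Its log2 ratio of 2.26 (2.17 to 2.36) was the largest among all genes tested, and cluster 4 alone held 40.3% of its UMIs in the library. Isg15, a ubiquitin-like modifier, stood at 513 CPM (490 to 537), against 43.3 CPM in cluster 11, a median of 133 CPM and 198 CPM in cluster 5. Ifit1 stood at 179 CPM (166 to 194), against 6.52 to 76.5 CPM with a median of 44.5 CPM. For all of these genes the interval in cluster 4 lay above the level of every other cluster. Rsad2, which encodes the antiviral enzyme viperin, behaved differently, since its 82.3 CPM (73.1 to 92.3) in cluster 4 was exceeded by 149 CPM in cluster 8, a cluster with 1020 UMIs per cell, while the median of the other clusters was 8.39 CPM. Of the Rsad2 UMIs outside cluster 4, 18.7% were in cluster 8, and of all those of the library 49% were in cluster 4.

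**Figure D1:**
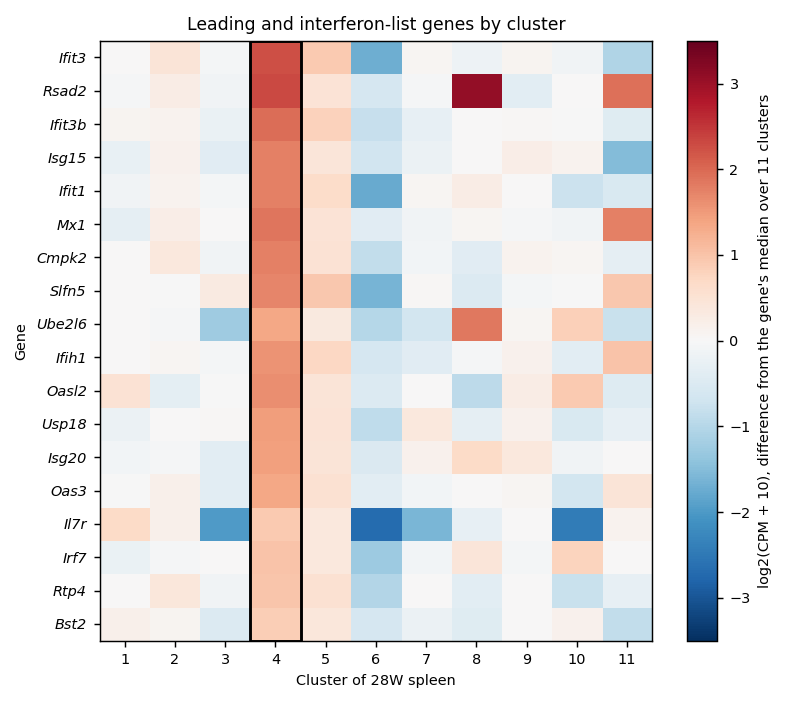
Levels of 18 genes (rows) in the 11 clusters of the 28W spleen (columns), as the difference in log2(CPM + 10) from the gene's median over the clusters (colour), with cluster 4 boxed. Cluster 4 was highest for 11 of the 12 interferon-list genes shown, with Rsad2 higher in cluster 8.

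Promoters of 7 genes called higher in cluster 4 are shown because they hold a sequence feature that was chosen after the values had been seen. They are 6 of the 7 genes with a match among the 15 of highest log2 ratio, the other being Ifit3b, and Bst2 of the interferon list, and promoters without a match are not shown. Each line gives 60 bases of mouse promoter sequence upstream of the gene's RefSeq start, from RefSeq on GRCm38.p6, read 5′ to 3′ on the strand of the gene. Capitals mark an interferon element, spelled as GAAA, any 2 bases and GAAA again, on either strand, with overlapping matches merged. The windows lie at chr19:34583365-34583424 (+) for Ifit3, chr19:34640769-34640828 (+) for Ifit1, chr4:156200856-156200915 (−) for Isg15, chr12:26456538-26456597 (−) for Rsad2, chr5:120777700-120777759 (−) for Oas3, chr11:82951922-82951981 (+) for Slfn5 and chr8:71537565-71537624 (−) for Bst2.
Ifit3: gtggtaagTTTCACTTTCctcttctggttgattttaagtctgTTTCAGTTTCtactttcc
Ifit1: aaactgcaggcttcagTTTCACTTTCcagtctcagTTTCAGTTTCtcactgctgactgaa
Isg15: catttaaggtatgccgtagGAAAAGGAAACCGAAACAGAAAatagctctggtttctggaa
Rsad2: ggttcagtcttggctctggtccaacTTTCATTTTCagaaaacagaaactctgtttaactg
Oas3: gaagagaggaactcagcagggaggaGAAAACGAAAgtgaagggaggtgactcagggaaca
Slfn5: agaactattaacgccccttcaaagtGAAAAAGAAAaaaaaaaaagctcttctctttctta
Bst2: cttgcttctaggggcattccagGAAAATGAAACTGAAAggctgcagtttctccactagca
Ifit3 and Ifit1 each held 2 separate copies of the element, Isg15 3 overlapping matches, Bst2 2 overlapping matches, and Rsad2, Oas3 and Slfn5 1 match each. The window of Ifit3b, the near-identical neighbour of Ifit3, at chr19:34607761-34607820 (+), had the same 60 letters as that of Ifit3. Over the 250 bases upstream of the start, the element was found in 936 of 27025 genes of the promoter table (3.46%) and in 168 of the 4238 tested genes with an entry (3.96%). Among the genes called higher in cluster 4 it was found in 35 of the 94 with an entry (37.2%), and among those called lower in 2 of 181 (1.10%), Eomes and Smc2. It was found in 7 of the 13 genes with an entry among the 15 of highest log2 ratio and in 6 of 9 of the interferon list, and not in leading genes such as Cmpk2, Ube2l6, Ifih1, Oasl2 and Isg20. Genes called higher that held it outside the interferon-linked lists included Socs1, Cxcl10, Jaml and Gzma, and Socs1 and Cxcl10 are themselves induced by interferon. Because interferon-linked genes led the contrast and the element was chosen afterwards, these shares describe the called genes and do not test them. Mx1, Usp18 and Rtp4 were among the interferon-list genes with no entry.

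The rest of the interferon-linked genes were described through 13 further lists, chosen after the values had been seen. Taken with the interferon list they held 57 of the 123 genes called higher in cluster 4 (46.3%) against 93 of the 5338 genes tested (1.74%), and none of the 229 called lower. The lists did not take in every gene tied to interferon. Among the 66 called genes outside them were Cxcl10, Socs1 and Ly6a, named below as induced by interferon, and Gbp10, Ifi35 and Ifi47. The 46.3% therefore leaves out part of the interferon-linked genes. Of the 57 genes at 50 CPM or more that were highest in cluster 4 of all 11 clusters, 31 belonged to these lists.

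The IFIT family had the highest median of the added lists. In this family, a compact group of neighbours on chromosome 19, 5 of 6 members were called higher with a median log2 ratio of 1.49. Ifit3 (chr19:34583531-34588731), Ifit3b, Ifit1, Ifit2 (39.9 against 15.1 CPM) and Ifit1bl1 (68.5 against 27.4 CPM) were each highest in cluster 4. Since Ifit3 and Ifit3b are nearly identical, the split of reads between them is uncertain. In the OAS list, genes of an antiviral second-messenger system, 4 of 8 members were called higher (median 0.85), namely Oasl2 at 62.9 against 14.2 CPM, Oas3 at 75 against 22.6 CPM, Oas1a at 138 against 51 CPM and Oasl1 at 23 against 7.98 CPM. Of 13 further effectors 7 were called higher (median 0.87). Mx1, a dynamin-like GTPase that blocks virus replication, was at 71 CPM (62.6 to 80.4) in cluster 4, between 6.67 and 65 CPM with a median of 11.8 CPM elsewhere, and its interval overlapped the level of cluster 11. Cmpk2, a mitochondrial nucleotide kinase that is the neighbour of Rsad2 on chromosome 12, was at 93.2 CPM (83.5 to 104), which was 2.85 times its level in cluster 5, the next cluster. Bst2, the virion tether tetherin, was at 540 against 270 CPM, and Eif2ak2, the RNA-activated kinase PKR, at 28.4 against 9.17 CPM. Ifitm1 was the exception, at 12.4 CPM against 19.5 CPM, with 49.6% of its UMIs outside cluster 4 in cluster 10.

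In the list of ISG15 and the enzymes that attach and remove it, most members were called higher. Of the 6 genes of this list 4 were called higher, with a median log2 ratio of 1.22, and 2 were highest in cluster 4 of all clusters. Usp18, the protease that removes ISG15 and dampens the interferon receptor, was at 167 CPM (154 to 181) against 51.1 CPM and was highest in cluster 4. Ube2l6, the conjugating enzyme, was at 64.6 against 14.5 CPM, with 96.5 CPM in cluster 8. Herc6, the ligase, was at 56.7 against 25.7 CPM, with 97.5 CPM in cluster 11. Uba7, the activating enzyme, at 44.9 against 28.2 CPM, did not reach the threshold.

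Some of the sensors and factors of the pathway were called higher, and no receptor chain was called. Among 8 sensors of RNA and DNA 4 were called higher (median 0.64), with Ifih1, which encodes MDA5, at 84.8 against 21.5 CPM, Ddx58, which encodes RIG-I, at 107 against 55.2 CPM and Zbp1 at 211 against 99.3 CPM. Tmem173, which encodes STING, was at 68 against 78.4 CPM. Of 8 STAT and IRF factors 4 were called higher (median 0.39). Irf7, the factor that amplifies interferon production, was at 242 CPM (226 to 259) against 102 CPM, Stat2 at 48 against 20.3 CPM and Irf9 at 110 against 69.8 CPM. Irf3 and Irf1, at 31.5 against 36.7 CPM and 162 against 154 CPM, were not called. In summed level, cluster 11 exceeded cluster 4 for the sensors (618 against 572 CPM) and for the STAT and IRF factors (1936 against 1472 CPM). None of the 7 receptor chains and kinases was called (median log2 ratio −0.00), and only 5 of them reached the 20 CPM needed for a call. Ifnar1 was at 46.6 CPM (39.8 to 54.3) against 46.8 CPM, Ifnar2 at 112 CPM (101 to 123) against 110 CPM, Jak1 at 322 against 344 CPM and Tyk2 at 15.4 against 16.4 CPM. None of 10 listed type I interferon genes was in the expression table.

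The interferon-induced GTPases were called higher as a group, with 13 of 14 members past the threshold and a median log2 ratio of 0.85. Gbp2, a guanylate-binding protein, was at 149 against 64.6 CPM, and Igtp, an immunity-related GTPase, at 191 against 88.6 CPM. Tgtp2, the member not called, was at 11.8 against 4.74 CPM, under the 20 CPM minimum. In the Schlafen family, regulators of T cell quiescence and translation, 3 of 7 members were called (median 0.52), with Slfn5 at 168 CPM (155 to 183) against 44.5 CPM. Of 11 Ifi200 genes, a family of DNA-binding proteins, 6 were called (median 0.64), with Ifi203 at 292 against 150 CPM. Of 6 PARP-linked genes 5 were called (median 0.78), with Parp14 at 120 against 56.4 CPM. MHC class I and peptide loading genes were closer, since none of 15 was called although all 15 lay above 0, from 0.10 for Psmb9 to 0.42 for Tapbp, with B2m at 2845 against 2476 CPM. Reads of the class I heavy chains can be shared between near-identical copies. Summed levels were higher in cluster 11 than in cluster 4 for the Ifi200 (1213 against 1109 CPM), PARP-linked (394 against 373 CPM) and MHC class I lists (18722 against 13643 CPM). The GTPase and Schlafen sums were highest in cluster 4. Cluster 4 was the highest cluster for 2 of 11 Ifi200 and 3 of 6 PARP-linked genes.

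**Figure D2:**
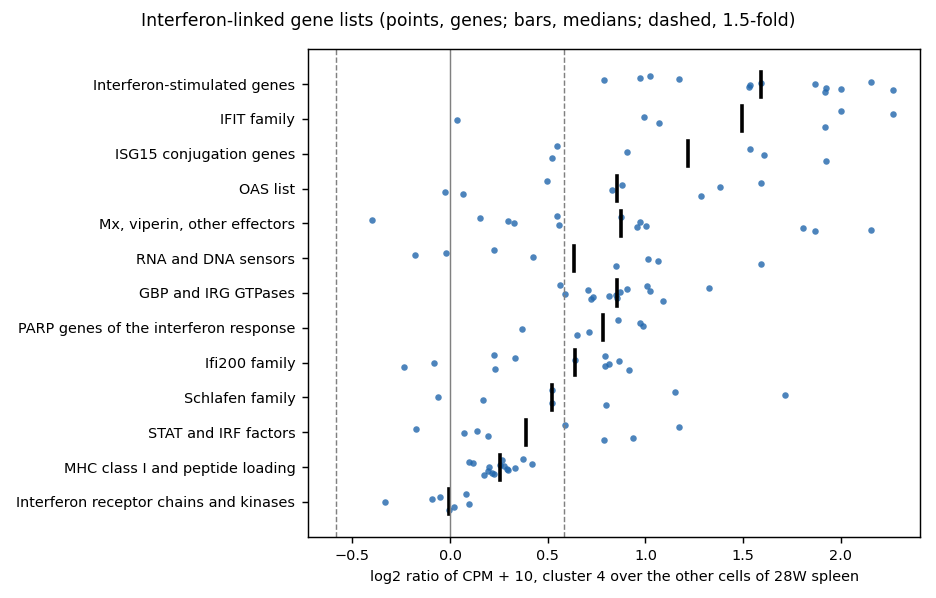
Log2 ratio of cluster 4 over the other cells of the 28W spleen (horizontal axis, log2 of CPM + 10) for each member (points) of the interferon-linked gene lists (rows), with the median of each list and dashed lines at 1.5-fold. The IFIT family had the highest median of the added lists, 1.49, and the receptor chains and kinases lay around 0.

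Il7r (chr15:9505788-9530176, − strand, GRCm38) was at 760 CPM (732 to 789) in cluster 4 and 296 CPM in the other cells, a log2 ratio of 1.33 (1.27 to 1.39). It followed with 638 CPM (615 to 662) in cluster 1, 521 CPM in cluster 5, 454 CPM in cluster 2, 437 CPM (363 to 522) in cluster 11, 401 CPM in cluster 9 and 326 CPM in cluster 8. It was lowest in cluster 7 with 126 CPM, cluster 3 with 93.8 CPM, cluster 10 with 65.1 CPM and cluster 6 with 54 CPM. The intervals of clusters 4 and 1 did not overlap, whereas cluster 11 could not be placed against clusters 5, 2, 9 and 8 within counting error. The partner and signalling genes of the IL-7 receptor did not share this pattern. Of 21 genes of the IL-7 receptor and common gamma chain list, 2 were called higher, Il7r and Socs1, none lower, and the median log2 ratio was 0.09. Il2rg, the common gamma chain, was at 693 CPM (666 to 721) against 609 CPM, Jak3 at 95.8 against 80.5 CPM and Stat5b, which transmits the signal, at 54.2 against 55.5 CPM. Bcl2, a survival gene downstream of the receptor, was at 90.7 CPM (81.1 to 101) against 72.7 CPM, with 97.8 CPM in cluster 1. Socs1, a feedback inhibitor of JAK kinases that is also induced by interferon, was at 121 CPM against 61.7 CPM and was highest in cluster 4.

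Hspa1a (chr17:34969190-34972156, − strand) was at 46.6 CPM (39.8 to 54.3) in cluster 4, from 4.78 CPM in cluster 7 over a median of 29.3 CPM to 38.8 CPM in cluster 1 elsewhere. Its near-identical neighbour Hspa1b was at 50 CPM (42.9 to 57.9), with 45.3 CPM in cluster 2. Because reads cannot be assigned with certainty between these copies, their sum is also given, and it was 96.6 CPM (86.7 to 107) in cluster 4, 82 CPM (74 to 90.5) in cluster 2, 80.9 CPM (72.7 to 89.7) in cluster 1, 70.8 CPM (52.4 to 93.6) in cluster 10 and 59.5 CPM (38.9 to 87.2) in cluster 9. Cluster 4 was thus the highest in value, with an interval that overlapped those of all 4. Of 18 heat shock chaperones Hspa1a and Hspa1b were the only ones called higher, none was called lower, and the median log2 ratio was 0.11. Hspa8, the constitutive HSP70 chaperone, was at 2540 against 2787 CPM and Hspd1, the mitochondrial HSP60, at 196 against 262 CPM. The 60 bases shown for Hspa1a, at chr17:34972227-34972286 (−), are given with a heat shock element in capitals.
Hspa1a: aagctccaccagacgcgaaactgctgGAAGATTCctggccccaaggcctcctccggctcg
The element was spelled as GAANNTTC, and the Hspa1b window at chr17:34959309-34959368 (−) held the same 60 letters. It was found in 7.73% of all genes of the promoter table, in 6 of the 14 heat shock chaperones with an entry (42.9%), and in none of the 13 genes with an entry among the 15 of highest log2 ratio. Among the genes called higher as a whole it was found in 12 of 94 (12.8%), Bst2 included, against 6.35% of the tested genes and 13 of the 181 called lower (7.18%). The AP-1 motif TGANTCA was found in 13 of those 94 (13.8%), Ifit3, Rsad2 and Oas3 included, against 4.62% of the tested genes and 11 of the 181 (6.08%). The interferon element was found in none of the 14 chaperones, and AP-1 in 1, Bag3.

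**Figure D3:**
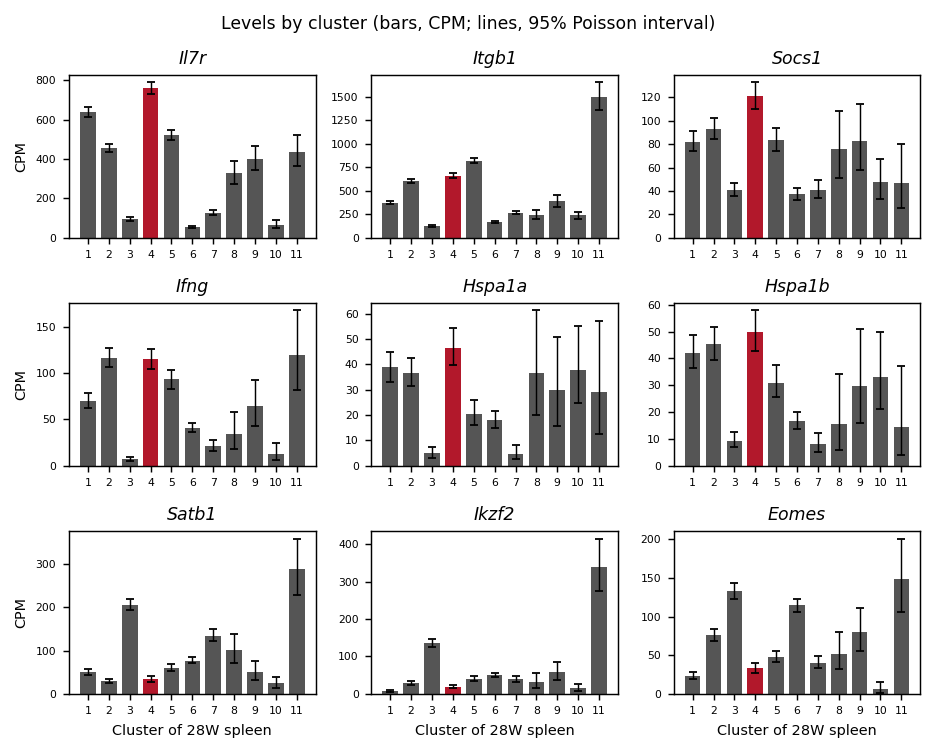
Level in CPM (vertical axes, linear from 0) of Il7r, Itgb1, Socs1, Ifng, Hspa1a, Hspa1b, Satb1, Ikzf2 and Eomes in the 11 clusters of the 28W spleen (horizontal axes), with 95% Poisson intervals as bars. Il7r was highest in cluster 4 at 760 CPM, while Itgb1 was higher in clusters 11 and 5.

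Genes of adhesion, migration and effector function were among the other genes called higher. Itgb1, the integrin beta 1 chain, was at 660 CPM (634 to 687) against 374 CPM, and was higher in cluster 11 (1506 CPM) and cluster 5 (821 CPM). Its partner Itga4, which with it forms the integrin VLA-4, was at 424 against 260 CPM, and these were the 2 of 12 leukocyte integrin genes called (median log2 ratio 0.06). Itga4 too was higher in cluster 11 (1376 CPM) and cluster 5 (489 CPM). Ifng, which encodes interferon gamma, was at 115 CPM (104 to 126) against 57.2 CPM, close to 119 CPM in cluster 11 and 116 CPM in cluster 2. Il18r1, a chain of the receptor for interleukin-18, was at 89.3 against 42.7 CPM, with 89.6 CPM in cluster 2. Cluster 4 thus lay level with cluster 2 for both genes within counting error. Cxcl10, the interferon-induced chemokine that binds CXCR3, was at 42.7 against 9.06 CPM, and Cd274, which encodes PD-L1, at 33.4 against 14.3 CPM. Ly6a, the interferon-inducible surface protein Sca-1, was at 2948 against 1725 CPM and highest in cluster 4. Of 10 Krüppel-like factors and S1P receptors, Klf6 (346 against 202 CPM) and Klf3 (202 against 128 CPM) were called, and Klf2, which drives egress from lymphoid organs, was at 1517 CPM (1477 to 1558) against 1084 CPM. Klf6 and Klf3 were higher in cluster 11, at 600 and 289 CPM. Of 10 cytotoxic granule genes, Gzma was called higher at 113 CPM (102 to 124) against 70.5 CPM and Gzmb lower at 10.1 CPM (7.08 to 14) against 30.6 CPM, with 52.5% of the Gzmb UMIs outside cluster 4 in cluster 2. The highest level of Gzma, 137 CPM, was also in cluster 2. Prf1, which encodes perforin, and Gzmk were not called.

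Many of the genes called lower in cluster 4 were concentrated in the cycling cluster 6. Of the 229, 139 were highest in cluster 6, and 86 of these had over 50% of their UMIs outside cluster 4 in that cluster, as did 10 genes in cluster 10 and 8 in cluster 8. All 10 cell cycle genes were called lower (median log2 ratio −1.91), among them Pclaf, a replication factor, at 2.53 against 95.2 CPM, with 95.6% of its other UMIs in cluster 6. Without cluster 6 among the other cells, 87 genes were called higher and 94 lower. The lowest log2 ratios belonged to genes of other cell types that sat in single clusters. Hbb-bs, a beta globin, was at 3.65 against 283 CPM, with 97.3% of its other UMIs in cluster 8. S100a8, a neutrophil granule gene, had 0 UMIs in cluster 4 against 99.9 CPM and was at least 119-fold lower, taking 3 UMIs as the limit of a count of 0. Cd74, the invariant chain of MHC class II, was at 30.3 against 429 CPM, with 92% of its other UMIs in cluster 10. For these 3 genes the median of the other clusters was 8.57, 0.246 and 21.2 CPM.

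T cell genes were also among those called lower. Of 13 naive and central memory genes 5 were called lower and 1, Il6ra, higher (58.1 against 32.1 CPM), with a median log2 ratio of −0.51. Satb1, a chromatin organiser of naive T cells, was at 33.7 CPM (27.9 to 40.3) against 90.8 CPM, from 24.6 CPM in cluster 10 over a median of 68.8 CPM to 289 CPM in cluster 11 elsewhere. Id3 was at 71 against 143 CPM and Lef1 at 107 against 182 CPM. Tcf7, the partner of Lef1 in the same pathway, was at 208 CPM (193 to 223) against 207 CPM. Of 15 effector and exhaustion transcription factors 3 were called lower, namely Ikzf2 at 18.8 CPM (14.6 to 23.9) against 54.1 CPM, Eomes at 33.1 CPM (27.4 to 39.7) against 77.9 CPM and Irf8 at 9.55 against 35.2 CPM, with 32.8% of the other Irf8 UMIs in cluster 10. Of 9 inhibitory receptors Cd160 (10.1 against 33.6 CPM) and Tigit (12.1 against 28 CPM) were called lower, while Pdcd1 and Lag3 (124 against 110 CPM) were not called. Havcr2, which encodes TIM-3, had no UMI in cluster 4. Tnfrsf9, the activation receptor 4-1BB, was at 1.97 CPM (0.79 to 4.05) against 42.8 CPM and Xcl1, a chemokine for cross-presenting dendritic cells, at 40.7 against 178 CPM, with 81.1% and 74.1% of their other UMIs in cluster 6. Nr4a1, an early reporter of T cell receptor signalling, was at 7.58 against 26.7 CPM, with 50.1% of its other UMIs there. The remaining 21 AP-1 and immediate-early genes were not called, and the list had a median of −0.04, against −0.06 for the 13 genes of the NF-kB list, of which none was called. The other lists of T cell genes had few members called. Members under 20 CPM in both cluster 4 and the other cells could not be called. That level was reached by 4 of 13 chemokine receptors, 4 of 8 tissue residency genes and 8 of 12 BCL2 family genes. It was reached by 3 of 11 NK receptor genes and 1 of 11 type 17 genes. Of the lists above, 5 of 9 inhibitory receptors and 15 of 22 AP-1 and immediate-early genes reached it. Median log2 ratios were −0.01 for 15 effector cytokines and chemokines (1 higher, 2 lower), −0.01 for 9 costimulatory receptors (1 lower), −0.17 for 11 NK receptor genes (1 lower, Klrd1) and −0.19 for 16 S100, annexin and galectin genes (4 lower). They were 0.15 for 14 quiescence genes (1 lower, Rgs10), −0.16 for 13 chemokine receptors, −0.13 for 12 BCL2 family genes and 0.06 for 8 tissue residency genes, with no call in the last 3, and −0.03 for 11 type 17 genes (1 higher, Il18r1).

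Cluster 1 came next to cluster 4 in Il7r, and the interferon genes separated them. Against cluster 1, 269 of 5051 genes were called higher in cluster 4 (5.33%) and 2 lower (0.0396%), with a median over all genes of 0.11. Ribosomal protein genes took 40.9% of the UMIs of cluster 1 and 36.2% of those of cluster 4. The effect of this share on the counts of called genes was not tested. All 13 interferon-list genes were called higher, with a median log2 ratio of 1.67, from 0.69 for Bst2 to 2.35 for Rsad2. Ifit3 was at 345 CPM in cluster 4 and 63.8 CPM in cluster 1, and Mx1 at 71 and 7.66 CPM. Il7r differed by 0.25 (0.17 to 0.32) on the log2 scale, and Hspa1a by 0.22 (−0.04 to 0.47), an interval that included 0. Ctla4, an inhibitory receptor, was at 120 against 53 CPM and Itgb1 at 660 against 374 CPM. Igfbp4, a gene of naive T cells, was 1 of the 2 genes called lower, at 9.27 against 30.4 CPM. Several genes called lower in cluster 4 against all other cells were no higher in cluster 1. Cd160 was at 10.1 CPM in cluster 4 and 8.34 CPM in cluster 1, and Tigit at 12.1 and 6.99 CPM. Eomes was at 33.1 and 23.7 CPM, Ikzf2 at 18.8 and 7.66 CPM and Gzmb at 10.1 and 1.8 CPM. Satb1 (33.7 and 49.8 CPM) and Lef1 (107 and 143 CPM) were instead higher in cluster 1. Klf2 was level, at 1517 and 1518 CPM.

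Cluster 5 had the next highest interferon sum and stood closer to cluster 4. Against it, 32 of 5422 genes were called higher (0.59%) and 47 lower (0.867%), with a median over all genes of −0.14. Of the 13 interferon-list genes 10 were called higher, with a median log2 ratio of 1.13, and the largest was Rsad2 at 82.3 against 16.2 CPM (1.82, 1.53 to 2.09). Bst2, at 540 against 384 CPM (0.48, 0.38 to 0.58), and Rtp4, at 193 against 142 CPM (0.42, 0.27 to 0.58), were below the threshold. The added lists were split, counting members at 20 CPM or more. Called higher were 4 of 5 OAS, 3 of 5 IFIT, 3 of 6 ISG15 conjugation and 4 of 12 further effector genes. So were 2 of 6 sensors, 2 of 13 GTPases, 1 of 5 Schlafen, 1 of 6 PARP-linked and 1 of 8 STAT and IRF genes. None of 7 Ifi200, 15 MHC class I and 5 receptor and kinase genes was called. Il7r was at 760 against 521 CPM (0.54, 0.45 to 0.62), Gzma at 113 against 44.1 CPM (1.18, 0.95 to 1.41) and Ccl4, an inflammatory chemokine, at 86.8 against 48.6 CPM. Genes called lower than in cluster 5 included Izumo1r, the folate receptor FR4, at 55 against 121 CPM, Tox, a factor of chronically stimulated T cells, at 54.5 against 92.7 CPM, Ikzf2 at 18.8 against 40.7 CPM and Ctla4 at 120 against 188 CPM. Ctla4 and Ikzf2 therefore stood between the levels of clusters 1 and 5. These contrasts share the cells of cluster 4 with each other and with the contrast against all other cells.

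**Figure D4:**
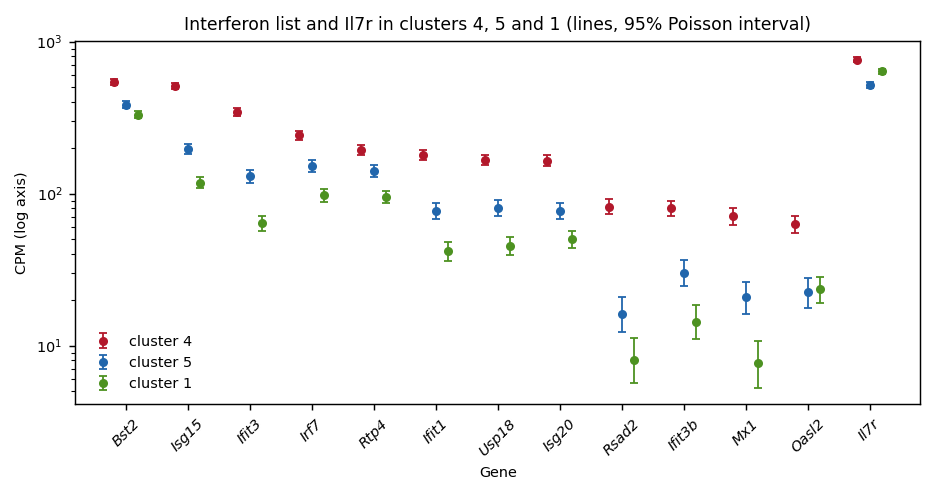
Level in CPM (log axis) of 12 interferon-list genes and Il7r in clusters 4, 5 and 1 of the 28W spleen, with 95% Poisson intervals. Cluster 4 was above both for all 12 genes, with Rtp4 the closest at 193 against 142 CPM in cluster 5.

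In the other libraries, high Il7r and high interferon genes were not always found in the same cluster. Clusters carry numbers of their own in each library, and the levels of different libraries were set side by side without a common normalisation beyond the total. In 12W spleen, cluster 2 (1118 cells) had the highest Il7r, 685 CPM (659 to 711), and the highest interferon sum, 1096 CPM, where 231 of 5584 genes were called higher (4.14%). Of its interferon list 7 of 13 genes were called higher, at a median log2 ratio of 0.77, with Ifit3 at 72.8 against 22.7 CPM, Isg15 at 127 against 58.9 CPM and Rsad2 at 10.6 against 6.74 CPM, all below their levels in cluster 4 of the 28W spleen. Itgb1 stood further out there, at 502 against 74.4 CPM. The 43 genes called higher in both clusters were 35.0% of those of cluster 4 and 18.6% of those of the 12W cluster, and across 5338 genes, which are not independent, the log2 ratios had a Spearman rho of 0.67. Only 95 of the 123 genes of cluster 4 were tested in that 12W contrast, and the others could not be shared.

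In 28W kidney, cluster 6 (604 cells, chosen here after its values were seen) had the highest interferon sum, 4390 CPM, above that of cluster 4 of the spleen. All 13 genes of the list were called higher there (157 of 5611 genes in all, 2.8%), with a median of 1.51, Ifit3 at 478 against 109 CPM and Isg15 at 908 against 243 CPM. Il7r was at 41.9 CPM (33.3 to 52.1) in that cluster against 170 CPM in the other kidney cells, a log2 ratio of −1.79. The 78 genes called in both were 63.4% of those of cluster 4 and 49.7% of those of the kidney cluster. The kidney cluster closest to cluster 4 over all genes was cluster 10 (425 cells, 1822 UMIs per cell), with a Spearman rho of 0.57, Il7r at 249 CPM, a list median of 0.95 and 12 of 13 genes called, in a contrast where 1151 of 6106 genes were called higher (18.9%). It shared 77 genes with cluster 4, 62.6% and 6.69% of the respective calls. Of the 123 genes of cluster 4, 117 were tested in the contrast of kidney cluster 6 and 120 in that of kidney cluster 10. Over the libraries as wholes, Hspa1a was at 24.9 CPM in 28W spleen, 2.65 CPM in 12W spleen and 670 CPM in 28W kidney, so the 46.6 CPM of cluster 4 was highest within its library and far below the kidney.

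**Figure D5:**
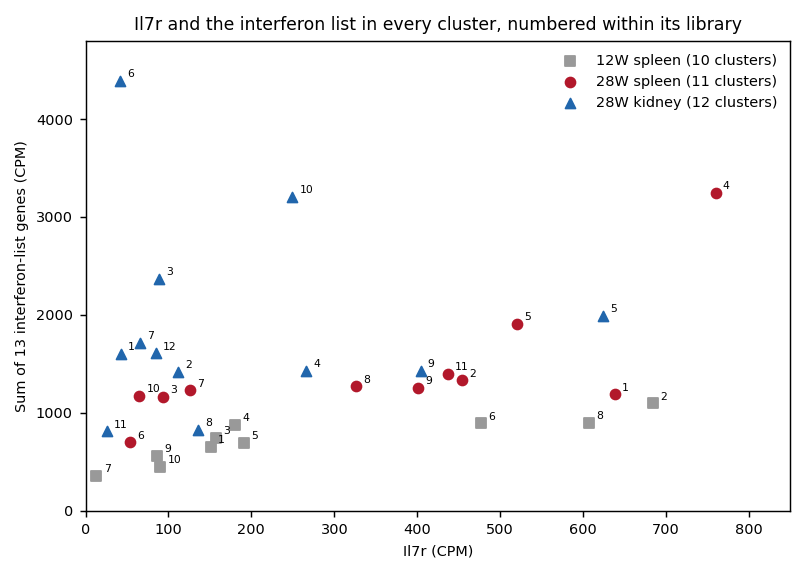
Il7r level (CPM) against the summed level of the 13 interferon-list genes (CPM) for each cluster of the 3 libraries (points, coloured by library). Cluster 4 of the 28W spleen lay at 760 and 3246 CPM, the kidney cluster with the highest interferon sum at 41.9 and 4390 CPM.

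The interferon genes also differed between the spleen libraries as wholes. With all cells, the 13 genes had a median log2 ratio of 0.96 between the older and the younger spleen, and all 13 were at least 1.5-fold higher at 28W. Without cluster 4 the median was 0.61, with all 13 still above 0 and 8 at least 1.5-fold higher. Leaving out in addition the clusters that carried erythroid, B cell or high mitochondrial signal (8, 10 and 11 at 28W, 3 and 8 at 12W) gave 0.63, with 9 at least 1.5-fold higher. Since cluster 4 had the highest interferon sum of its library, its removal from the older spleen alone lowers the ratio by construction. With the cluster of highest sum left out of each spleen (4 at 28W and 2 at 12W), the median was 0.72, with 11 at least 1.5-fold higher. Age, library and sort cannot be told apart in this comparison.

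T cell receptor variable segments in cluster 4 were spread over many genes. Trav3-3 was the most used alpha segment, with 7.48% (6.41 to 8.67) of 2165 Trav UMIs in cluster 4 against 10.2% in the other cells. Trav5-4 took 4.85% and Trav13-1 4.53%, against 4.21% and 4.57%. Among beta segments, Trbv13-1 took 19.9% (18.9 to 21) of 5611 Trbv UMIs against 22.1%, Trbv13-2 19.5% against 18.9%, and Trbv1 17% (16.0 to 18.0) against 12.7%. These UMIs came from at most 853 cells, and UMIs of the same cell share its segment. The intervals treat UMIs as independent and are therefore too narrow, so the differences in usage are descriptions only. The effective number of segments is the inverse of the probability that 2 UMIs drawn from the cluster carry the same segment. For alpha segments it was 36.3 in cluster 4, the highest value of the 11 clusters, with 35.1 in cluster 1. The lowest value, 16.9, was in cluster 10, which held 98 Trav UMIs. For beta segments it was 7.7 (6.1 to 9.6 elsewhere). No intervals were computed for these numbers, so the order of clusters 4 and 1 is not settled.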

How the data were processed

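The deposited files gave, for each library, the authors' assignment of cell barcodes to graph-based clusters and a table of mean counts per cluster. Per the file headers these values are mean UMI counts per cell that the authors had scaled to one total per library. The submitters' processing notes name Cell Ranger 2.1.1, R 3.6.1 and GRCm38. A constant factor per cluster returned whole UMIs for 100% of the values (within 0.001), and these were summed and divided by each cluster's total to give CPM. The barcodes were used as clustered by the authors. How doublets were treated was not given in the sources used here, and with no counts per cell none were called or removed. The authors' columns of log2 fold changes and adjusted p-values were not used.

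Log2 ratios were taken on CPM + 10 over genes at 20 CPM or more, with a threshold of 1.5-fold, and intervals covered 95%. Scripts ran in Python 3.11.15 with numpy 2.4.6, pandas 2.3.3 and scipy 1.17.1 and were tested on simulated data. With 1 library per group no test between groups was made. Named genes were the 15 highest and 10 lowest log2 ratios at 50 CPM or more, the 10 genes furthest above the next cluster, list members that define a list or lie at its ends, and the 3 most used Trav and Trbv segments. Other genes were named after their values were seen. The members and 33 gene lists were chosen with earlier results of these data known, and 13 lists and the interferon element after the values were seen. Coordinates came from GENCODE M21 (16168 of 16194 identifiers matched) and promoters from RefSeq. Some members of the lists are counted but not reported here by name.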

Additional observations from a re-analysis of the deposited data

How the results depend on the processing

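The numbers of genes called in cluster 4, 123 higher and 229 lower, depended on the settings. They were 191 and 368 with a pseudocount of 1 CPM, 53 and 76 with 50 CPM, and 34 and 84 with a threshold of 2-fold. The number lower was 94 without the cycling cluster among the other cells, 127 with a level minimum of 50 CPM and 357 with no minimum. The median log2 ratio of the interferon list, 1.59, was 2.0 with a pseudocount of 1 CPM, 1.06 with 50 CPM and 1.79 with totals free of ribosomal protein, mitochondrial and T cell receptor genes. The Spearman rho with cluster 2 of 12W spleen, 0.67, was 0.75 over genes at 50 CPM or more. The median of the interferon list for 28W over 12W spleen, 0.96, was 0.61 without cluster 4, 0.63 also without the clusters of other markers and 0.72 with each spleen without its cluster of highest interferon sum, alternatives added after seeing the data. Leaving clusters 8, 10 and 11 out of the other cells reversed Cd74 to 0.093 and Jchain to 0.53, since the clusters that held most of their UMIs were then gone. Of 266 values of 38 named genes under the alternatives, 135 moved by less than counting error, 129 moved further and 2 reversed. Of 342 list medians 23, in 13 lists, took the other sign, all of them lists with main medians between −0.16 and 0.15. Scaling by the median gene ratio gave 44.7% higher among all called genes, against 34.9%. No paired analysis was possible because each group was 1 pooled library, and for the same reason no replicate could be left out. Depth limited the smallest clusters most, since a count of 0 allowed 0.842 CPM in cluster 4 and 10.8 CPM in cluster 11. Cells, mice, age and library cannot be told apart.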
